A study of Drosophila melanogaster with 2 samples.

Results

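The genes of the small nuclear, small nucleolar and small Cajal body-specific RNAs were examined for accessible chromatin in ML-DmD17-c3 (D17) cells, a Drosophila melanogaster line derived from larval haltere imaginal disc. They were taken by symbol from the Release 6 annotation, as every gene on the named chromosomes whose symbol starts with snRNA:, snoRNA: or scaRNA:. That gave 306 of 17807 genes, of which 32 are snRNA, 257 snoRNA and 17 scaRNA genes. A gene counted as having a region where an accessible region overlapped the gene or the 500 bp beyond either end by at least 1 bp. Coordinates are those of Release 6 (dm6). The assay was ATAC-seq, which marks open DNA by letting a transposase insert sequencing adapters there. The 2 libraries of D17 cells, for which the labels name no treatment, form 1 group. The deposited list of 26571 regions names no replicate and was taken as the list of the whole group, an assumption that the sources used here do not settle, so every value below is a single value of the authors without an SD, and there is no other condition. The list holds no expression values, so the cell type label was not checked against markers here.

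Small nuclear RNAs form the catalytic core of the spliceosome, with U1, U2, U4, U5 and U6 in its common form and U11, U12, U4atac, U5 and U6atac in its rarer form. U7 directs the trimming of histone mRNA ends, and 7SK holds the elongation kinase P-TEFb inactive. Small nucleolar RNAs guide modification of ribosomal RNA, and scaRNAs do the same for the snRNAs: members with box C/D motifs guide ribose methylation and members with box H/ACA motifs guide pseudouridylation. Most snRNA genes are transcribed from promoters of their own by RNA polymerase II, and U6, U6atac and 7SK by RNA polymerase III. Most Drosophila snoRNA and scaRNA genes instead lie in introns of other genes and are cut out of the host's transcript. In the fly annotation, Me and Psi in a symbol stand for guided methylation and pseudouridylation.

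A region lay in or within 500 bp of 20 of the 32 snRNA genes (62.5%), against 109 of the 274 snoRNA and scaRNA genes (39.8%). Among all 17807 genes the share was 70.9%, but the members are short, with a median length of 135 bp against 1695 bp over all genes. Of the 2037 other genes of at most 511 bp, the length of the longest member, 33.6% had a region. The snRNA share stood well above that of other short genes, and the snoRNA and scaRNA share was near it. The 290 tRNA genes, another class of short RNA genes, lay between, with 143 (49.3%). The 260 miRNA genes, also short, had 100 (38.5%), close to the snoRNA and scaRNA share. The snoRNA genes, at 102 of 257 (39.7%), and the scaRNA genes, at 7 of 17 (41.2%), had close shares. These shares describe 1 list, and since neighbouring genes share regions, no test was run between them. Where genes that share a region or overlap were counted as 1 locus, 17 of 29 snRNA loci (58.6%) and 80 of 245 snoRNA and scaRNA loci (32.7%) had a region.

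**Figure D1:**
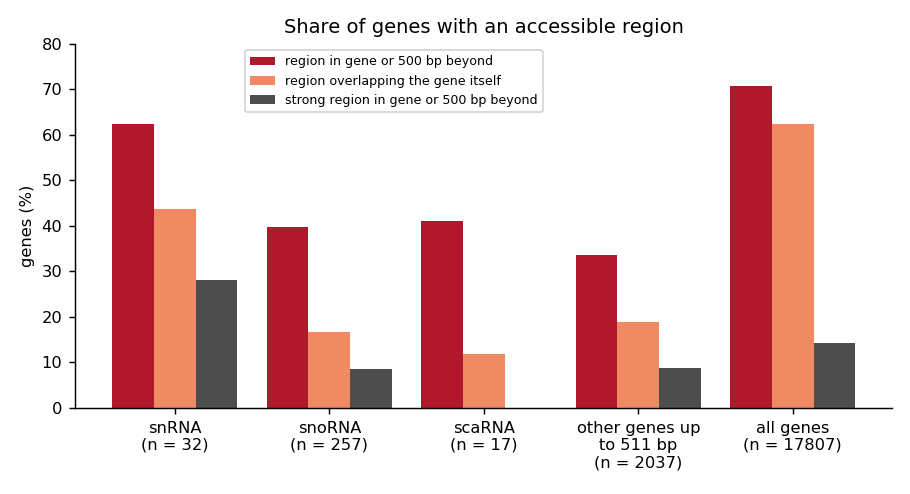
Percent of genes (vertical axis) in 5 gene classes with a region in the gene or 500 bp beyond, with a region that overlaps the gene itself, and with a strong region, each bar being a share of the number of genes under it. The snRNA bars stand at 62.5%, 43.8% and 28.1%, above those of snoRNA, scaRNA and other short genes, and no scaRNA gene had a strong region.

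Contact with the gene itself separated the classes further. A region overlapped the transcribed sequence of 14 of 32 snRNA genes (43.8%), 43 of 257 snoRNA genes (16.7%) and 2 of 17 scaRNA genes (11.8%), against 18.8% of other short genes and 62.4% of all genes. Strong regions, those at or above the fold that marks the highest 10% of the list (at least 2.999 times the local background), lay at 9 snRNA genes (28.1%). They lay at 22 snoRNA genes (8.56%) and at 0 of 17 scaRNA genes. The share with a strong region was 8.79% among other short genes and 14.3% among all genes. The tRNA genes were closer to the snRNA genes in both measures, with a region overlapping the gene at 35.2% and a strong region at 24.5%. Over the genes with a region, the median of each gene's highest fold was 2.27 for the 20 snRNA genes, 2.23 for the 102 snoRNA genes and 1.85 for the 7 scaRNA genes. It was 2.16 for the other short genes, 2.98 for the tRNA genes and 2.17 for all genes. Between snRNA and snoRNA genes the upper part of the range differed more than the median. A strong region lay at 45% of the snRNA genes with a region and 21.6% of such snoRNA genes. The share was 0 of 7 for scaRNA genes, 26.2% for other short genes and 49.7% for tRNA genes. The upper quartile of fold was 3.63 for snRNA genes, 2.85 for snoRNA genes, 3.05 for other short genes and 4.10 for tRNA genes. A high upper range was thus not particular to the snRNA genes. These shares and quartiles count genes, and some genes share a strong region. Among the 9 snRNA genes, snRNA:LU and snRNA:U5:23D shared 1 region, as did snRNA:U6:96Aa and snRNA:U6:96Ab. Some of the 22 snoRNA genes shared strong regions too. With a window of 200 bp the medians were 3.01 for snRNA genes and 2.205 for snoRNA and scaRNA genes. They lay closer with the other windows, at 2.6072 and 2.29995 for 0 bp and 2.77 and 2.27 for 1000 bp. Where genes that share a region or overlap were counted as 1 locus, the order reversed. The medians were then 2.205 for snRNA loci and 2.252 for snoRNA and scaRNA loci. A higher snRNA median thus depended on how genes were counted. The fold is the authors' ratio of read pileup at the summit to local background, and the intervals given with it are exact 95% Poisson limits of the pileup, with the background held fixed, which cover counting error only.

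The highest fold at any member belonged to snRNA:7SKa, which encodes the 7SK RNA. Its region at 3R 7474583 to 7475142 had a fold of 10.6 (interval 9.87 to 11.5) from a summit pileup of 698 reads over a background of 64.7, and 38 regions in the whole list had a higher fold. The summit lay inside the gene (3R 7474553 to 7474996), and the nearest end of a gene outside the set was 1000 bp away. The other 7SK gene, snRNA:7SKb, lies inside CG4374 and had no region, the nearest being 21065 bp away with a fold of 2.03. The 2 7SK genes thus stood at opposite extremes of the snRNA genes.

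**Figure D2:**
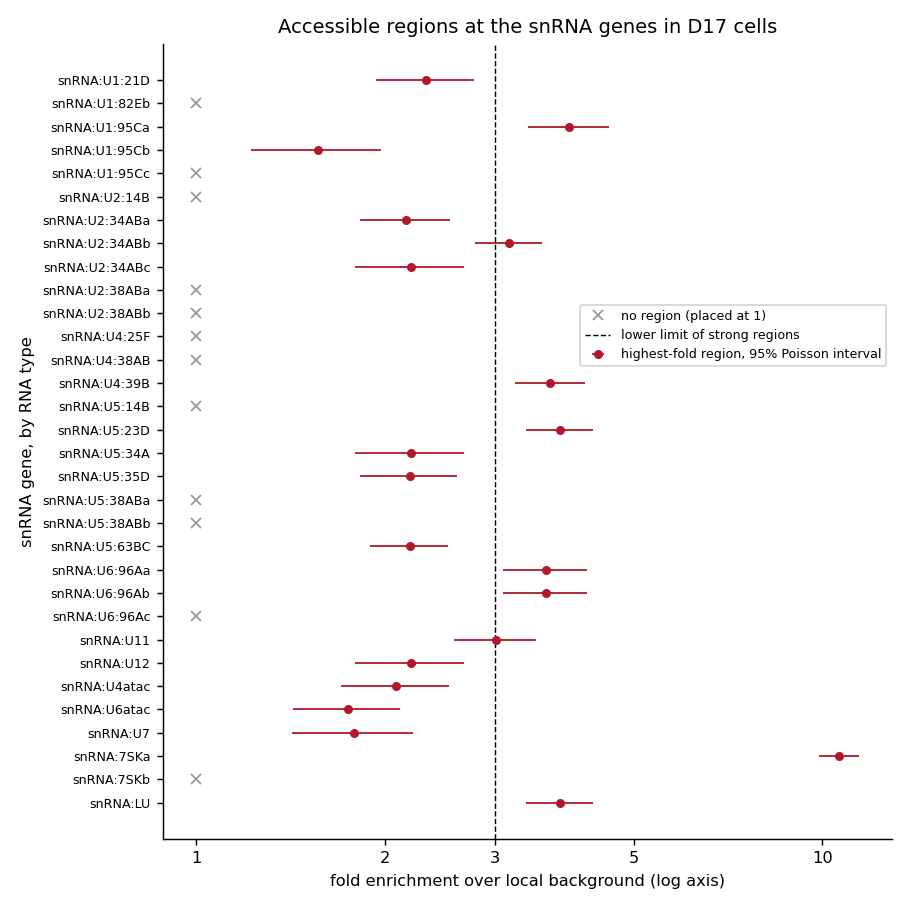
Fold enrichment of the highest-fold region (horizontal log axis) at each of the 32 snRNA genes, grouped by RNA type, with 95% Poisson intervals as bars, crosses for genes with no region, and a dashed line at the lower limit of strong regions. snRNA:7SKa stands apart at 10.6, the other 19 genes with a region run from 1.57 to 3.95, and 12 genes have none.

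The U1 genes, whose RNA pairs with the donor splice site, had a region at 3 of 5. snRNA:U1:95Ca had the highest fold of them, 3.95 (interval 3.39 to 4.57) at 3R 23859416 to 23859795, with the summit 16 bp from the gene and 479 bp from an end of CG34355. The 2 U1 genes inside CG34355 lie deep in it, 22475 to 24011 bp from its nearest end. They were lower or had none, with 1.57 (1.23 to 1.97) at snRNA:U1:95Cb and no region at snRNA:U1:95Cc, 1808 bp from the nearest. snRNA:U1:21D was counted through a region of fold 2.33 whose edge was 211 bp from the gene but whose summit was 2306 bp away, nearer to an end of Lsp1beta. No region was called at snRNA:U1:82Eb, where the nearest was 1055 bp away.

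The U2 genes, whose RNA pairs with the branch point, had a region at 3 of 6, all in the 34AB group on 2L. snRNA:U2:34ABb had a fold of 3.16 (interval 2.78 to 3.57), with the summit 27 bp from the gene. snRNA:U2:34ABa had 2.16, with a summit 659 bp away, and snRNA:U2:34ABc had 2.205 with the summit 48 bp away. The region at snRNA:U2:34ABc, at 2L 13244525 to 13245134, also covered snRNA:U5:34A. The other U2 genes, snRNA:U2:38ABa, snRNA:U2:38ABb and snRNA:U2:14B, had none.

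U5 RNA, which holds the exons together during splicing, is encoded by 7 genes, of which 4 had a region. snRNA:U5:23D was counted through a region of fold 3.81 whose edge was 464 bp away and whose summit was 1938 bp away, beside snRNA:LU. snRNA:U5:34A had 2.205, snRNA:U5:35D had 2.19 with a summit 652 bp from the gene and 173 bp from an end of ND-B17, and snRNA:U5:63BC had 2.19 with a summit 31 bp from the gene. Of the 3 U4 genes, whose RNA keeps U6 paired until activation, snRNA:U4:39B had a fold of 3.68 (interval 3.23 to 4.17) at 2L 21215042 to 21215385, with the summit 29 bp from the gene. snRNA:U4:25F and snRNA:U4:38AB had no region, with the nearest 2551 and 714 bp away. The U6 genes, for the RNA at the catalytic centre, lie in tandem on 3R. snRNA:U6:96Aa and snRNA:U6:96Ab shared 1 region of fold 3.62 (interval 3.09 to 4.21) with its summit 100 bp from the first of these, and its edge lay 619 bp from snRNA:U6:96Ac, which was thereby not counted.

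The 6 snRNA types with 1 gene each all had a region, against 14 of the 26 genes of types with several copies. The median fold ran the other way, at 2.15 for the 6 genes and 2.74 for the 14, some of which share a region with another snRNA gene. Strong regions lay at 2 of the 6 genes, against 7 of all 26 and 7 of the 14 with a region. Their direction thus depended on which genes were counted, and over genes with a region it was that of the median. This split was made after the values were seen. snRNA:U11 and snRNA:U12, of the rarer spliceosome, had folds of 3.01 (interval 2.58 to 3.49) and 2.205 (1.80 to 2.68), each with the summit inside the gene. snRNA:U4atac had 2.09 with a summit 349 bp away, and snRNA:U6atac had 1.75 with a summit 668 bp from the gene and 252 bp from an end of CG13384. snRNA:U7 had 1.79 (interval 1.42 to 2.22) with a summit 42 bp away, and snRNA:LU had 3.81 (3.36 to 4.30) with a summit 2 bp away. Copies of 1 snRNA type can be nearly identical, and the sources used here do not say how reads that match several copies were handled. Values at such copies, and the absence of a region there, are uncertain for that reason, and its part in the split was not tested. Genes transcribed by RNA polymerase III had a region at 4 of 6, against 16 of 26 of the others.

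Of the 12 snRNA genes without a region, 7 lie in 2 clusters. All 5 genes of the 38AB cluster on 2L, snRNA:U4:38AB, snRNA:U5:38ABa, snRNA:U2:38ABb, snRNA:U2:38ABa and snRNA:U5:38ABb, lacked one. They lie inside sick, a gene of 162060 bp with 25 regions in it or within 500 bp, and the nearest of these were 714 to 2082 bp from the snRNA genes with folds of 1.76 and 1.79. The neighbouring pair snRNA:U5:14B and snRNA:U2:14B, the snRNA genes of X, had no region within 16790 and 16044 bp. On the other chromosomes a region lay at 10 of 16 snRNA genes on 2L, 4 of 4 on 3L and 6 of 10 on 3R. Over all genes of these chromosomes, long ones included, the shares were 68.2% on 2L, 75.4% on 3L, 74.5% on 3R and 63.5% on X. The snRNA counts on 2L, 3R and X lay below them and that on 3L above. The 2L count includes the 5 genes of the 38AB cluster.

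Summits lay closer to the snRNA genes than to the others. The summit of the highest-fold region was a median of 74 bp from the gene for the 20 snRNA genes with a region, against 446 bp for the 109 snoRNA and scaRNA genes. It lay within 200 bp of 11 of the 20 snRNA genes and of 26 of the 109. A summit lay inside 3 of the 32 snRNA genes (9.38%), snRNA:7SKa, snRNA:U11 and snRNA:U12. It lay inside 4 of the 274 others (1.46%), snoRNA:Or-CD16, snoRNA:Or-aca4, snoRNA:Psi18S-1377d and snoRNA:U3:9B, against 6.19% of other short genes and 57.6% of all genes. Those other short genes are longer, with a median of 322 bp against 134 bp for snoRNA and scaRNA genes. For tRNA and miRNA genes, with medians of 73 and 92 bp, the shares were 1.38% and 0.769%. The rule that a region counts from its edge admits distant summits: 6 of the 20 snRNA genes and 48 of the 109 others had it over 500 bp away. The summit was nearer to the member than to any gene end outside the set for 14 of the 20 snRNA genes and 71 of the 109 others. It was within 500 bp of such an end for 8 and 40 of them, whose regions cannot be assigned to the small RNA gene from position. It was farther for 12 and 69, where position alone does not show which gene a region serves.

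**Figure D3:**
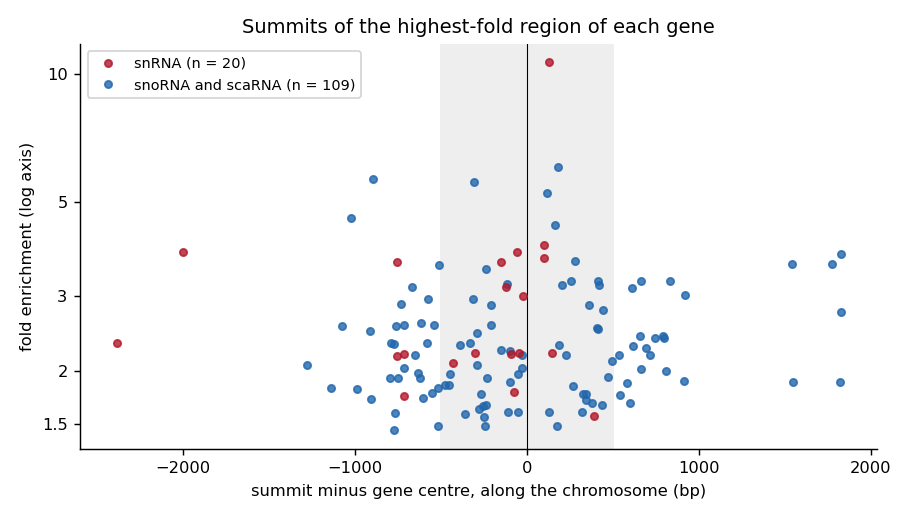
Position of the summit of each gene's highest-fold region relative to the gene centre (horizontal axis, bp along the chromosome, since strand was not used) and its fold (vertical log axis), for 20 snRNA and 109 snoRNA and scaRNA genes, with 500 bp either side shaded. Red snRNA points gather near the centre line, where snRNA:7SKa stands highest at 10.6.

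Among snoRNA genes the highest fold was 6.04 (interval 5.60 to 6.51) at snoRNA:Psi18S-176, outside any other gene at 2R 23839911 to 23840064. Its background of 113 reads was above the lowest of the list, 44.4 reads. Its summit lay 101 bp from the gene and 301 bp from an end of GlyT. Next was snoRNA:Psi18S-525a, with 5.65 (interval 4.99 to 6.37), inside Arpc2, where the region lies at the lower end of the host and its summit was 830 bp from the snoRNA gene. The U3 genes, whose RNA is needed to cut the ribosomal RNA precursor, lie outside other genes, and 3 of 3 had a region. Their folds were 5.58 at snoRNA:U3:54Ab, 3.18 at snoRNA:U3:54Aa and 2.23 at snoRNA:U3:9B. The summits at snoRNA:U3:54Ab and snoRNA:U3:54Aa were 206 and 315 bp from the snoRNA genes but 30 and 1 bp from ends of tRNA genes. That at snoRNA:U3:9B was inside the gene.

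The next snoRNA genes differed in how close their summits lay to ends of other genes. snoRNA:hts-a had a fold of 5.25 with the summit 49 bp from it and 59 bp from an end of a tRNA gene. snoRNA:Dek-a had 4.57, with the summit 939 bp away and 254 bp from an end of its host Dek. By contrast snoRNA:Me18S-C1968 had 4.41 (interval 3.83 to 5.06) with the summit 112 bp from it and 4022 bp from the nearest end of another gene. Likewise snoRNA:Psi28S-3342, outside other genes on X, had 3.64 (3.11 to 4.24) with the summit 199 bp from it and 4263 bp from any such end. The remaining genes of the 15 highest were snoRNA:Me28S-U3344a (fold 3.76), snoRNA:Or-CD9a and snoRNA:Or-CD9b (1 shared region, 3.56), snoRNA:Or-CD14 (3.55), snoRNA:CG43051-a (3.48), and snoRNA:Psi18S-1377a, snoRNA:Psi18S-1377b and snoRNA:Psi18S-1377c (1 shared region, 3.26). snoRNA:Psi28S-2626 shared that last region.

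Genes named as guides of 18S or 28S RNA pseudouridylation had a region at 39 of 106 (36.8%). Those named as guides of 18S or 28S RNA methylation had one at 25 of 75 (33.3%). Guides for the 18S and 28S RNAs had 26 of 67 (38.8%) and 38 of 114 (33.3%). These 4 shares were near the 33.6% of other short genes. snoRNA genes named otherwise, the U3 genes left out, stood higher, with 35 of 73 (47.9%). These include snoRNA:Me5.8S-G74, by name a guide for another ribosomal RNA, so they are not a class of genes that guide no ribosomal RNA modification.

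The scaRNA genes with a region had folds from 1.63 to 2.48. The highest was scaRNA:MeU2-C41 inside lds, with 2.48 (interval 2.07 to 2.95) and a summit 850 bp away. scaRNA:MeU5-C46, which lies next to snRNA:7SKa, had 2.11 from a region other than that of snRNA:7SKa, with the summit 334 bp away. Then came scaRNA:MeU2-48 (1.97), scaRNA:PsiU5-44 (1.85), scaRNA:MeU5-U42 (1.77), scaRNA:MeU2-G25 (1.77) and scaRNA:PsiU2-38.40.42 (1.63). No region was called at scaRNA:MeU1:95C-A24, scaRNA:PsiU2-35.45, scaRNA:MeU1b-A234, scaRNA:PsiU2-55, scaRNA:MeU4-A65, scaRNA:PsiU6-40, scaRNA:MeU4:25F-C137, scaRNA:PsiU1-6, scaRNA:MeU5-G38 and scaRNA:MeU2-C28. The nearest regions to these 10 were 624 to 1580 bp away.

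The classes also differ in how often they lie inside another gene. Of the 274 snoRNA and scaRNA genes, 262 (95.6%) lay whole inside another annotated gene, taken as the host, against 17 of the 32 snRNA genes (53.1%). Strand was not used, so a host can lie on the opposite strand. Outside other genes, 10 of 15 snRNA genes and 7 of 12 snoRNA and scaRNA genes had a region. Inside them the counts were 10 of 17 snRNA genes and 102 of 262 (38.9%) of the others.

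Hosts differed widely in how many of their snoRNA genes had a region. Arpc2, which encodes an actin-nucleating Arp2/3 subunit, holds 17 snoRNA genes, of which 1 had a region, although the region at its lower end had a fold of 5.65. The non-coding host Uhg1, known for carrying snoRNAs in its introns, holds 16 and had 0 with a region, and Uhg5 holds 11 and had 0. RpS5a, a ribosomal protein gene, holds 14 with 0, and kra holds 8 with 0. The chromatin remodeller gene dom holds 15, of which 6 had a region with folds of 1.59 to 2.27. Hrb98DE holds 7 with 1. Nop60B, the gene of the pseudouridine synthase of H/ACA particles, holds 7 with 3. RpS7, which ties with these at 7, had a region at 7 of 7, through 2 regions of fold 1.60 and 3.26. All 4 genes in RpL17, all 4 in lola and all 4 in Sf3b3 also had a region. These 3 hosts were picked after their values were seen.

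**Figure D4:**
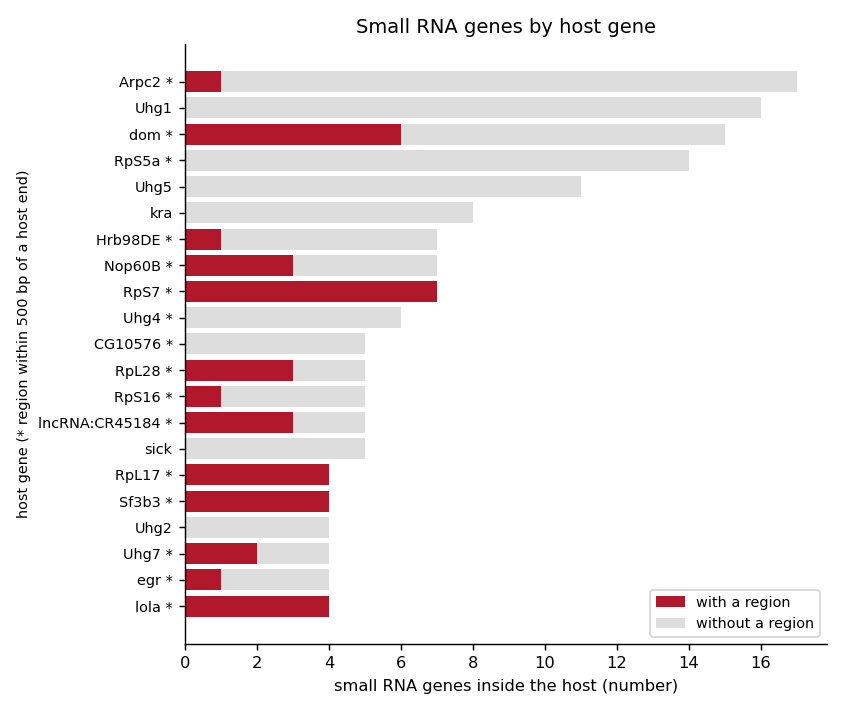
Number of small RNA genes inside each host gene that holds at least 4 of them (horizontal axis), split into those with and without a region, with an asterisk for hosts that have a region within 500 bp of an end. RpS7 is filled, while Uhg1, RpS5a, Uhg5 and kra have no member with a region.

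Grouped by kind of host, members inside ribosomal protein genes had a region at 36 of 67 (53.7%), those inside the 7 Uhg genes at 3 of 47 (6.38%) and those inside other genes at 63 of 148 (42.6%). The Uhg members with a region were 2 in Uhg7 and 1 in Uhg8. A region lay within 500 bp of an end of 25 of the 26 ribosomal protein hosts, 3 of the 7 Uhg hosts and 57 of the 73 others. Among members whose host had such a region, 96 of 202 (47.5%) had one too, against 6 of 60 (10%) where the host had none. Of the 60, 16 lay in Uhg1, 11 in Uhg5, 8 in kra, 4 in Uhg2 and 3 in Uhg3, all without a region. The contrast thus rests on few hosts and in part repeats that of the Uhg hosts. Part of it is also built in, since a member close to the end of its host shares the window. Of the 102 hosted members with a region, 58 (56.9%) had their highest-fold region within 500 bp of an end of the host and 44 did not. The share also varied with depth inside the host: 29 of 59 members (49.2%) within 500 bp of a host end had a region, 22 of 58 (37.9%) in the next 500 bp, 24 of 69 (34.8%) between 1000 and 2000 bp and 27 of 76 (35.5%) beyond. In Uhg hosts it was 3 of 22 even within 500 bp of an end.

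The 129 members with a region drew on 116 distinct regions, 93 at 1 member and 23 at several. These 116 regions had a median fold of 2.18 and a median width of 645.5 bp, against 1.90 and 497 bp over the whole list. A wide region meets a gene's window more readily, so the difference in width is partly built in. The fold was not particular to members, since each gene's highest fold had a median of 2.17 over all genes with a region. The most shared was a region of 274 bp at 3R 30207020 to 30207293 inside RpS7, counted for 6 snoRNA genes with a fold of 1.60. Another, at 2R 21327476 to 21327932 inside dom with a fold of 2.18, served snoRNA:Psi28S-3316b, snoRNA:Psi18S-841a and snoRNA:Me28S-A2589b.

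**Figure D5:**
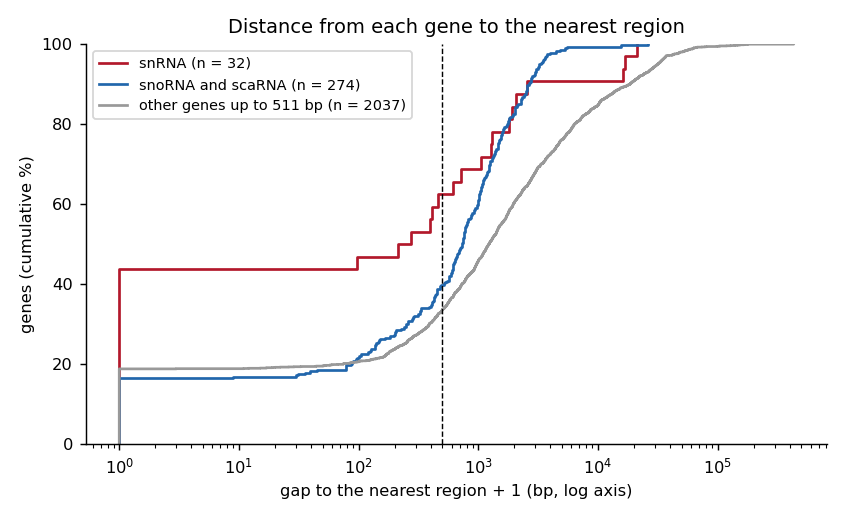
Cumulative percent of genes (vertical axis) against the gap from each gene to the nearest region plus 1 bp (horizontal log axis), for 32 snRNA genes, 274 snoRNA and scaRNA genes and 2037 other genes of at most 511 bp, with a dashed line at 500 bp. The snRNA curve starts at 43.8% in contact with a region and the others at 16.4% and 18.8%, while the first 2 curves meet near 2000 bp, at 84.4% and 82.5%, above the 60.3% of other short genes.

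Over all genes of each class, counted or not, the nearest region was a median of 241.5 bp from the snRNA genes and 729 bp from the snoRNA and scaRNA genes, against 1229 bp for other short genes. Over the genes without a region, the order was the other way, with a median of 1868 bp for 12 snRNA genes and 1241 bp for 165 snoRNA and scaRNA genes. Among these, 2 of 12 snRNA genes and 58 of 165 others had a region within 1000 bp, while 5 and 48 had none within 2000 bp. Just inside the 500 bp limit were snoRNA:lola-c at 485 bp (fold 2.32) and snoRNA:Me18S-U1356c at 482 bp (2.00). Just outside it were snoRNA:Me28S-A2589a at 512 bp (2.34) and snoRNA:Psi18S-1347a at 528 bp, whose region had a fold of 6.34. The farthest were snoRNA:185 at 26444 bp and snRNA:7SKb at 21065 bp.

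The protein genes that make, assemble and use these RNAs had a region near an end at 39 of 51 (76.5%), against 68.6% of all 13946 protein-coding genes. Of the 3 genes of SNAPc, the factor that binds snRNA promoters, Pbp49 had a fold of 3.78 at an end and Pbp45 had 2.86, while Pbp95 had no region. The general transcription factor genes Tbp, Trf, Brf and Bdp1 had 1.80 to 2.07. Of the 14 Integrator genes, whose complex cleaves snRNA precursors, 11 had a region, from 1.40 at IntS14 to 3.75 at IntS2 and 5.92 at IntS6. Those without one were IntS3, omd (IntS5) and defl (IntS7). All 3 genes for partners of 7SK had a region, with 4.53 at bin3, which caps it, 1.91 at Larp7 and 1.87 at Hexim.

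Among Sm and Lsm genes, which encode the rings on snRNAs, 7 of 8 had a region. The highest were SmE (3.31) and SmD3 (3.29), and SmF had none. For assembly, export and the Cajal body, Phax (3.06), Gem2 (1.96) and Smn (1.80) had a region and Gem3 and coil had none, and none of snf, snRNP-U1-70K and snRNP-U1-C, of U1 and U2 particles, had one. All 4 box C/D protein genes had a region, with 3.82 at nop5, 2.87 at Fib, 2.55 at hoip and 1.57 at Nop56. Box H/ACA protein genes had it at 3 of 4, with 3.56 at Nop60B, 2.66 at NHP2 and 2.08 at Nop10, and none at Gar1. Of the assembly factors, rept (2.60) and Nopp140 (1.98) had a region and pont had none.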

How the data were processed

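The authors' deposited list of 10 columns was used as given. Tools named in the submitters' processing notes are MACS2 2.2.6, Bowtie2 2.3.5.1, bedtools 2.29.2, Trim Galore 0.6.4 and SAMtools 1.13, with builds BDGP6 and dm6. The sources used here give neither their roles nor any pooling or shifting of reads. The deposited fold is a ratio of summit pileup to local background. The deposited −log10 p-value is that of the summit, the deposited score ranks regions, and the deposited summit offset places the summit. The pileup recovered from fold and p-value was whole within a relative error of 2.11e-05. Genes came from the RefSeq table of Release 6, with no strand, exons or sequence, so the planned reading of promoter letters was not run. The host is the shortest other gene that contains a member. Strong regions numbered 2683, ties included. Named genes were every snRNA and scaRNA gene, the 15 snoRNA genes with the highest fold, the 8 hosts with most members and the protein list, in which SmG matched no single gene. Members and lists were chosen with earlier results of these data known. No test was run over genes. Alternatives were windows of 0, 200 and 1000 bp, the summit, higher scores, strong and merged regions, loci and hosts. Overlap counting was tested on simulated data. Python 3.11.15, numpy 2.4.6, pandas 2.3.3, SciPy 1.17.1 and matplotlib 3.10.9 were used.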

Additional observations from a re-analysis of the deposited data

How the results depend on the processing

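snRNA genes with a region numbered 14 to 22 of 32 with the other windows, by summit and in the higher-scoring 50% of regions. In strong regions there were 9, and 10 each inside and outside other genes, where fewer genes enter. snoRNA and scaRNA genes with a region numbered 45 at 0 bp, 167 at 1000 bp, 68 by summit, 22 in strong regions and 7 outside other genes. At 1000 bp their share (60.9%) came closer to that of snRNA genes (68.8%). The snRNA median fold was 2.77 at 1000 bp, 3.01 at 200 bp and in the higher-scoring 50%, and 3.68 for strong regions. The snoRNA and scaRNA median was 3.52 in strong regions and 3.18 outside other genes. The share of all genes was 62.4% at 0 bp, 65.1% at 200 bp and by summit (65.08%), 77.4% at 1000 bp, 14.3% with strong regions and 51.5% in the higher-scoring 50%. Except where fewer regions or genes enter by construction, the cause was not tested. No regions overlapped or touched, so merging changed nothing. As alternatives chosen after seeing the data, 20 of 27 snRNA genes had a region without the 38AB cluster, and 106 of 227 others without Uhg hosts. No replicate could be left out, and no paired analysis was possible because the list names no replicate and the result comes from no test. The lowest summit pileup in the list was 62 reads, so weaker openings are not called at this depth, and a gene without a region is not shown to be closed.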
